A study of Mus musculus with 4 samples.

Results

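The interferon-stimulated genes are a list of 46 genes that cells switch on, or use, when they answer an interferon. They comprise interferon receptor chains, transcription factors, sensors of foreign nucleic acid, antiviral effectors, the ISG15 system, interferon-inducible GTPases and a few further genes. Members were found among the array probes by the current symbol of the probe's accession or, where the accession gave none, by the symbol written in the files. Of the 46 members 45 had a probe, 71 probes in all, and these were 45 of 27666 names on the array. After the filter on dim and missing spots 41 members were tested, among 18040 genes.

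Liver RNA was compared on 4 arrays of 2 colours. The livers labelled Plin2-ASO came from male C57BL/6 mice on a high-fat diet that were injected intraperitoneally with an oligonucleotide (ASO) antisense to the transcript of perilipin 2, a coat protein of lipid droplets, at 25 mg/kg, 2 times a week for 4 weeks. The control livers came from male C57BL/6 mice on the same diet, given a scrambled control ASO at the same dose and times, so all mice had received an ASO and no untreated mouse was compared. Ages were not given in the sources used here. Arrays 1 to 4 held mice 6, 7, 9 and 10 labelled Plin2-ASO in Cy3 and control mice 1, 2, 4 and 5 in Cy5, 1 mouse of each group on each array. The dyes were never exchanged, so a dye effect of a probe and the treatment cannot be told apart.

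Between 60.3% and 70.5% of probes were well above background in a channel, median spot signals were 244 to 637, and no spot was saturated. Array 3 stood apart: the mean correlation of its log2 ratios with those of the other arrays was 0.33, against 0.51 to 0.65 for arrays 1, 2 and 4, and 7.61% of its spots were outliers. The targeted transcript was not lower: Plin2 had normalized log2 signals of 13.96, 13.89, 14.32 and 13.71 in mice 6, 7, 9 and 10 labelled Plin2-ASO, and 13.71, 13.73, 13.49 and 13.34 in control mice 1, 2, 4 and 5. Its mean log2 ratio was 0.40 ± 0.15 (SE, 4 arrays, limma adjusted p = 0.156), positive on each array, so the RNA measured here goes against the label and the groups are named by their labels throughout. Every direction given for a member rests on the dyes named in the labels, and each higher or lower call would turn round if these were exchanged. Of the hepatocyte markers, 11 had a probe and all 11 were measured in both groups.

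Type I interferons bind a receptor of the chains Ifnar1 and Ifnar2, and interferon gamma binds Ifngr1 with Ifngr2. The Janus kinases on these chains phosphorylate STAT proteins. After type I interferon, STAT proteins together with Irf9 bind the interferon-stimulated response element, whereas after interferon gamma STAT dimers bind the gamma-activated site. In liver these genes are expressed by hepatocytes and by resident macrophages and endothelium.

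Promoter stretches, marked for the letters that these 2 kinds of complex are known to bind, are shown for some members. Of these, Ifit3, Irf7, Ifnar2 and Ifngr1 passed the test threshold. Ifit1, Isg15, Irgm1, Igtp, Tgtp1 and Irf1 did not pass and are shown as examples of the motifs. Promoter windows of 300 bases (250 bases before to 50 bases after the transcription start, RefSeq, GRCm38.p6) were found for 36 of the 46 members and searched for the response element core, GAAA, any 2 bases and GAAA again, on either strand (TTTC, any 2 bases and TTTC on the other), and for the gamma-activated site, TTC, any 3 bases and GAA, which reads the same on both strands. The first was found in 19 of 36 members (52.8%) and in 3.99% of 27025 genes with a window. The second was found in 14 members (38.9%) and in 9.55% of all these genes, and both were found in 6 members (16.7%) and in 0.614% of all. The following stretches, for Ifit3 at chr19:34583353-34583436 (+ strand), Ifit1 at chr19:34640765-34640833 (+ strand), Isg15 at chr4:156200855-156200916 (minus strand) and Irgm1 at chr11:48871415-48871470 (minus strand), are written 5′ to 3′ on the strand of the gene and have the matches to the response element core in capitals, where overlapping matches run together.
Ifit3: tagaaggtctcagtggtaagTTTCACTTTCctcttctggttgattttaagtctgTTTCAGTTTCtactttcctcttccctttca
Ifit1: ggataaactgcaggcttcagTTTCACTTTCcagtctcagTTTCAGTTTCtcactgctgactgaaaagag
Isg15: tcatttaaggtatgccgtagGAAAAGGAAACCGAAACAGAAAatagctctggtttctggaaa
Irgm1: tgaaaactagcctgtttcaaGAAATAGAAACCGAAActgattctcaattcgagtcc

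Ifit3 and Ifit1 each held 2 matches in the TTTC orientation, the first beginning 156 and 104 bases before the start. Isg15 held 3 and Irgm1 2 overlapping matches in the GAAA orientation. The GTPase genes Igtp and Tgtp1 held a gamma-activated site followed after 2 bases by a response element core, so that both motifs stand in capitals in the next stretches, and Irf1 held a gamma-activated site 90 bases before its start. Their positions are Igtp at chr11:58199491-58199551 (+ strand), Tgtp1 at chr11:48992294-48992354 (minus strand) and Irf1 at chr11:53769904-53769952 (+ strand).
Igtp: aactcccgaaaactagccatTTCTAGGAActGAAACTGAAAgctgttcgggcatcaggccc
Tgtp1: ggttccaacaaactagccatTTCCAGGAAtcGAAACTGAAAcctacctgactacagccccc
Irf1: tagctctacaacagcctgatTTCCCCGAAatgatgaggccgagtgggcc

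Of the members past the test threshold, Iigp1 and Ifi27 had no window. Irf7, Ifnar2 and Ifngr1 had a window without a response element core, and these are shown whole. Their windows are Irf7 at chr7:141266375-141266674 (minus strand), Ifnar2 at chr16:91372533-91372832 (+ strand) and Ifngr1 at chr10:19591699-19591998 (+ strand). The window of Ifnar2 held 1 gamma-activated site, in capitals, 214 bases before the start, and the windows of Irf7 and Ifngr1 held neither set of letters, which says nothing of sites outside the window.
Irf7: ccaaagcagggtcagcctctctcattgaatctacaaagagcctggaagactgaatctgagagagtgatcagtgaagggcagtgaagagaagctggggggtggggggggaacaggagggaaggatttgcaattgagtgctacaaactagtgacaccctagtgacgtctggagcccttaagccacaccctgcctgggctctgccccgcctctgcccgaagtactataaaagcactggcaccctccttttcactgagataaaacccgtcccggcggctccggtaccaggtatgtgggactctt
Ifnar2: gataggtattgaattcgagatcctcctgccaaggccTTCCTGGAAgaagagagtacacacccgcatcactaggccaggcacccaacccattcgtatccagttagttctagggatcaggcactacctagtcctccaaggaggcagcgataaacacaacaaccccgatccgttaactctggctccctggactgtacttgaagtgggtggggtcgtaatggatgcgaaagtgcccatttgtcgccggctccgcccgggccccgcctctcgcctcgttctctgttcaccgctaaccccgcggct
Ifngr1: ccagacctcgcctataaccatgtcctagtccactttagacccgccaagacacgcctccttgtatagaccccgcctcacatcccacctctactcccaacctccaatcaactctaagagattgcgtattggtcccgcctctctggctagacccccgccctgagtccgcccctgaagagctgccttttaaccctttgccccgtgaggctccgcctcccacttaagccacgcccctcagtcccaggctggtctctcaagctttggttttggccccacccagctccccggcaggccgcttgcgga

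Of the 18 tested members with a response element core 1 was higher and none was lower, with a median log2 ratio of 0.18. Of the 14 tested members whose window held none, 2 were higher and 1 was lower, also with a median of 0.18. A match is a description of letters only, and these counts are too small to be read further.

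In the livers labelled Plin2-ASO, 5 of the 41 tested members were higher than in control livers at a limma adjusted p below 0.05 (12.2%, against 3.69% of all genes tested) and 1 was lower (2.44%, against 6.08% of all genes tested). The members that rose were the interferon receptor chain Ifnar2, the transcription factor Irf7, the antiviral effector Ifit3, the GTPase Iigp1 and the mitochondrial protein gene Ifi27, and the member that fell was the interferon gamma receptor chain Ifngr1. All other members, 35 of 41, did not pass. The counts by role and by list below are to be read beside these shares of all genes, 3.69% higher and 6.08% lower. Members and lists were chosen with earlier results of these data known, so the shares are a description. The median log2 ratio of the 41 members was 0.23, against -0.03 over all genes tested. At an unadjusted p below 0.05, 11 members were higher (26.8%, against 11.3% of all genes) and 5 lower (12.2%, against 15.7%). Of the 40 members measured on all arrays 14 had a positive ratio on each array (35%, against 14.8% of all genes) and 4 a negative one (10%, against 19.5%), and 23 of the 41 had ratios of both signs.

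These counts rested on few arrays. Without array 1 no member passed in limma, and calls over all genes at the same adjusted p also dropped, to 0.887% higher and 1.27% lower. Without array 2 none passed either, with 0.914% and 1.2% of all genes called. At an unadjusted p below 0.05, 9 members were higher and 1 was lower without array 1, and 12 higher and 1 lower without array 2. No share of all genes at an unadjusted p was taken without single arrays, so these unadjusted counts have nothing to be read against. Without array 3, the array that stood apart, 7 members were higher and 6 lower, with 12.5% and 20.8% of all genes called. Without array 4 only Ifnar2 and Irf7 were higher and none was lower, with 2.59% and 4.07% of all genes called at the same adjusted p. At an unadjusted p below 0.05, 7 members were higher and 5 lower without array 4, again with no share of all genes beside them. The median log2 ratio of the members lay between 0.14, without array 4, and 0.29, without array 1.

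**Figure D1:**
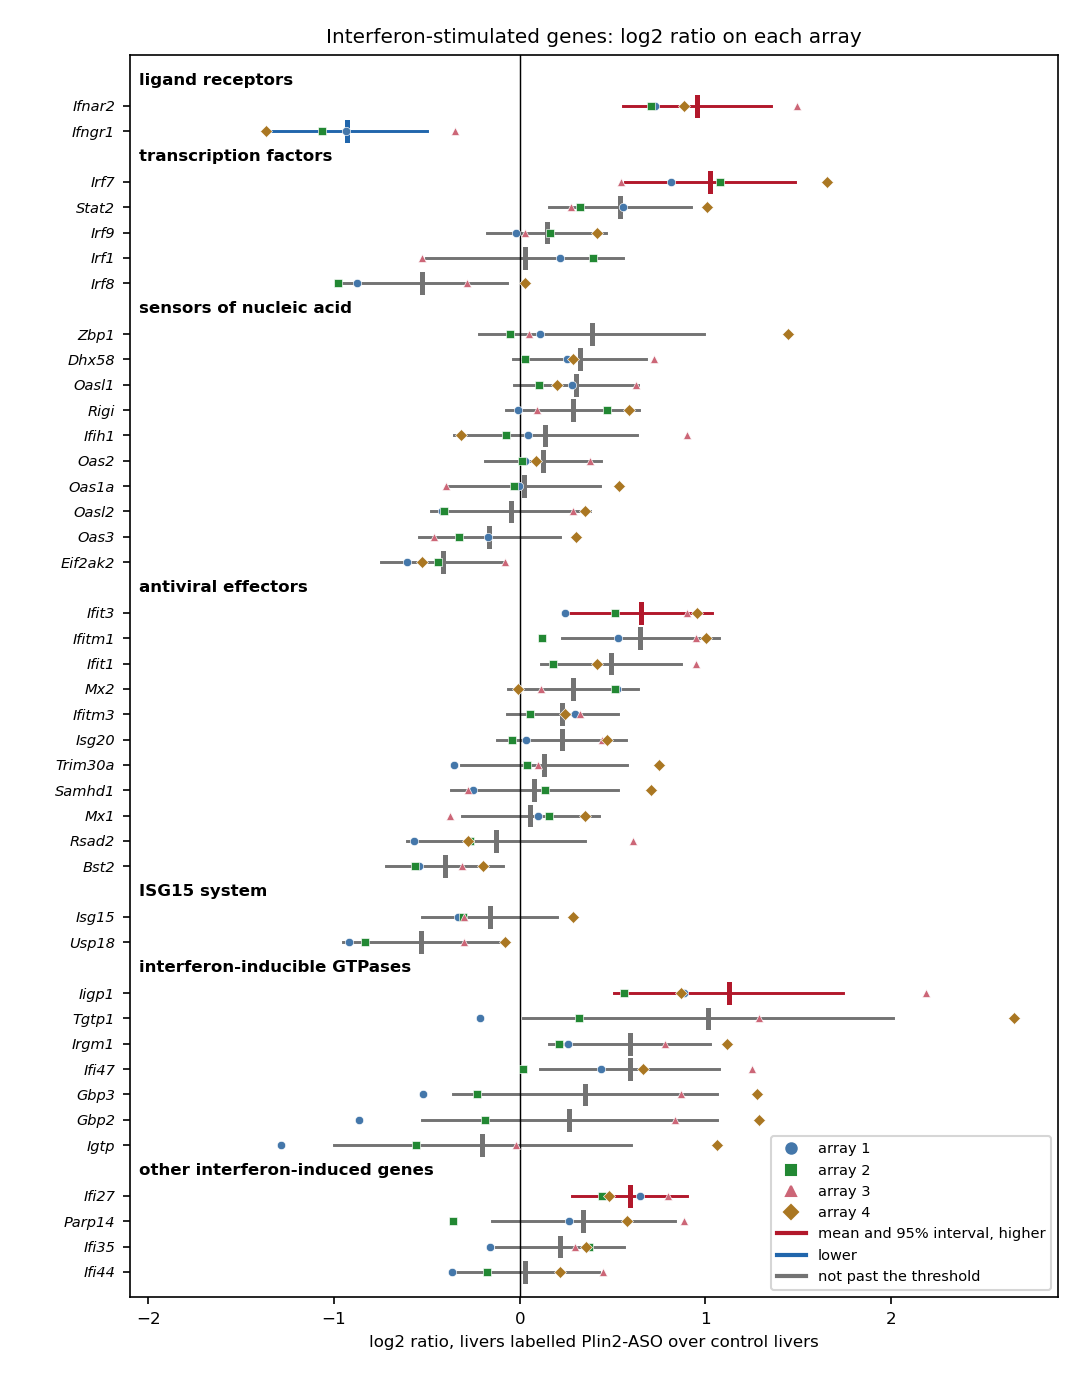
Log2 ratio of signal in livers labelled Plin2-ASO over control livers (horizontal axis) for the 41 tested members, ordered by role. Small symbols are the 4 arrays, vertical ticks are means and lines are 95% intervals of the limma fit; the 5 members past the threshold and higher are in red, the 1 lower (Ifngr1) in blue and the 35 others in grey.

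The receptor chains moved in opposite directions. Ifnar2, the chain of the type I interferon receptor that binds the ligand tightly, had log2 signals of 11.74, 11.96, 12.11 and 11.80 in mice 6, 7, 9 and 10 labelled Plin2-ASO, against 11.01, 11.25, 10.62 and 10.92 in control mice 1, 2, 4 and 5. Each liver labelled Plin2-ASO lay above each control liver, and the means were 11.90 ± 0.16 in livers labelled Plin2-ASO and 10.95 ± 0.26 in control livers (SD, n = 4 each). The mean log2 ratio was 0.95 ± 0.17 (SE), a 1.94-fold higher signal (limma adjusted p = 0.0173). The call held for 1 of the gene's 2 kept probes, at chr16:91444402-91444461 of mouse build mm7. The other, at chr16:91455837-91455896, gave -0.63, -0.84, 0.02 and -0.37 as log2 ratios on arrays 1 to 4 (mean -0.45), so the gene's probes disagreed in direction. With the mean of both probes the ratio was 0.25 (adjusted p = 0.364), and it was 1.03 (0.0816) without array 1 and 1.04 (0.0754) without array 2.

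Ifngr1, the ligand-binding chain of the interferon gamma receptor, had log2 signals of 11.88, 11.95, 12.38 and 11.92 in mice 6, 7, 9 and 10 labelled Plin2-ASO and of 12.82, 13.02, 12.73 and 13.28 in control mice 1, 2, 4 and 5. All livers labelled Plin2-ASO were below all control livers, with mouse 9 on array 3 the nearest to them. The means were 12.03 ± 0.23 in livers labelled Plin2-ASO and 12.96 ± 0.25 in control livers (SD, n = 4 each), and the mean log2 ratio of -0.93 ± 0.18 (SE) was a 1.90-fold lower signal (limma adjusted p = 0.0246). The gene had 1 probe, at chr10:19335421-19335480 (mm7). The adjusted p was 0.137, 0.142 and 0.0670 without arrays 1, 2 and 4. Ifnar1, the other chain of the type I receptor, had usable spots on arrays 1 and 2 alone, with log2 ratios of -0.24 and -0.06, and was not tested.

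In whole liver a change in the number of cells of a type and a change of RNA per cell cannot be told apart. Markers of non-parenchymal cells moved beside the receptor chains. Of 15 macrophage markers tested 8 were lower (among them Cd68, Csf1r, C1qb and Lyz2) and 4 higher (Clec4f, Vsig4, Marco and Cd163). Clec4f and Marco had usable spots on 3 arrays, with mean log2 ratios of 2.37 and 2.48. Over the 13 markers measured on all arrays, which leave out Clec4f and Marco, the mean log2 signal was 11.40 to 11.96 in mice labelled Plin2-ASO. In control mice it was 12.16 to 12.90 over the same markers. Of 12 endothelial markers 4 were lower and none higher, with mean signals of 9.93 to 10.42 in mice labelled Plin2-ASO and 10.37 to 10.85 in control mice. Of 7 tested neutrophil and monocyte markers 1 was lower (S100a9), of 8 B and plasma cell markers 2 and of 7 dendritic cell markers 1 (Ly6d). None of the 9 T and NK cell markers passed in limma (1 lower at an unadjusted p below 0.05), Gzma was not well above background on any array, and Siglech, which marks plasmacytoid dendritic cells, was on too few to be tested. Among the hepatocyte markers 1 of 11 was lower (Alb). The part of these cells in the ratios of the members was not tested.

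Of the 5 transcription factors, 1 rose. Irf7, the factor that drives transcription of the alpha interferons and is itself induced by interferon, had log2 signals of 11.67, 11.83, 11.48 and 12.52 in mice 6, 7, 9 and 10 labelled Plin2-ASO, against 10.85, 10.75, 10.93 and 10.87 in control mice 1, 2, 4 and 5. The control livers lay within a narrow band and all livers labelled Plin2-ASO lay above it, mouse 10 farthest. The means were 11.88 ± 0.45 in livers labelled Plin2-ASO and 10.85 ± 0.08 in control livers (SD, n = 4 each), a mean log2 ratio of 1.02 ± 0.19 (SE) or a 2.03-fold higher signal (limma adjusted p = 0.0218). Its single probe lies at chr7:137682028-137682378 (mm7). The adjusted p was 0.0948 without array 1 and 0.118 without array 2.

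Stat2, which works with Irf9 in the type I complex, did not pass. Its log2 signals were 10.51, 10.60, 10.98 and 11.72 in mice 6, 7, 9 and 10 labelled Plin2-ASO and 9.96, 10.28, 10.71 and 10.71 in control mice 1, 2, 4 and 5. The groups overlapped, although the ratio was positive on each array, with a mean of 0.54 ± 0.16 (SE, limma adjusted p = 0.0831). The adjusted p was 0.0163 without array 3. Irf9 had a mean log2 ratio of 0.15 and Irf1, measured on 3 arrays, of 0.03. A second kept probe of Irf9, measured on 3 arrays, had a mean of 0.49. Irf8, a factor of macrophages and dendritic cells, had a mean of -0.53 (adjusted p = 0.141), with ratios of -0.87, -0.98, -0.28 and 0.03 on arrays 1 to 4, and it passed as lower without array 3.

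**Figure D2:**
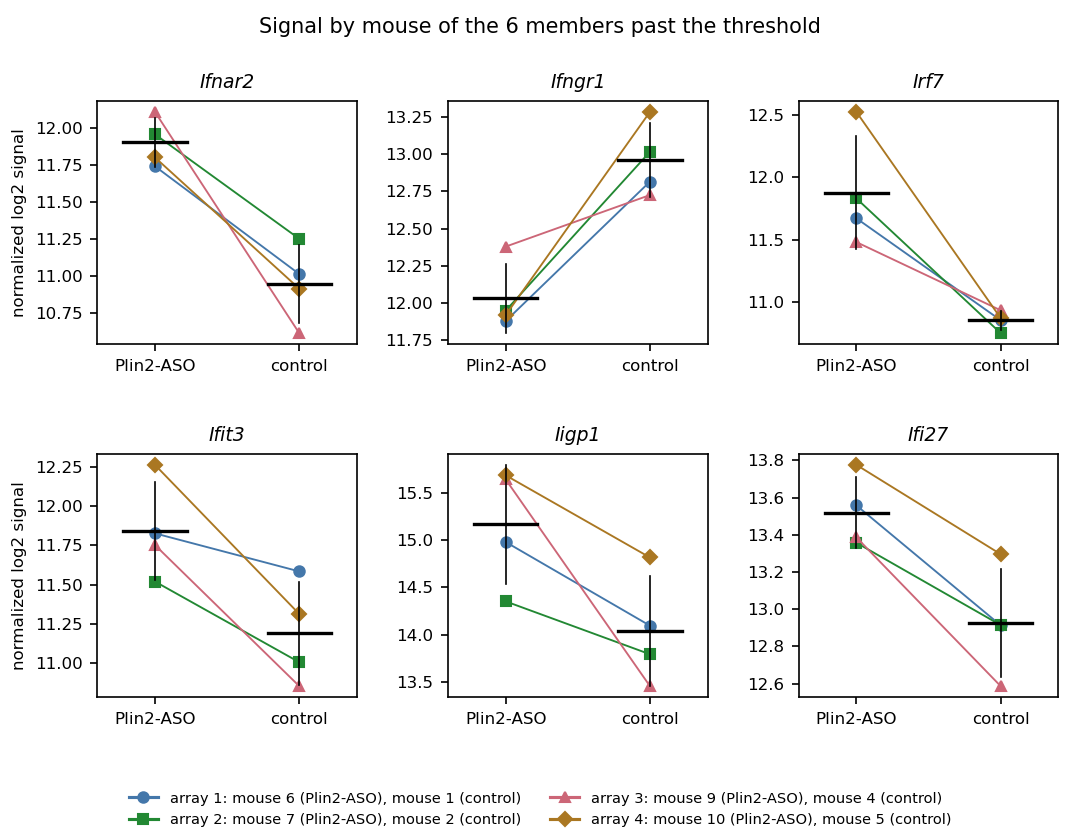
Normalized log2 signal by mouse (vertical axis) of the 6 members past the threshold, with livers labelled Plin2-ASO left of control livers and a line joining the mice of 1 array. Black bars are means with SD (n = 4 each); for Ifnar2, Irf7 and Ifi27 every liver labelled Plin2-ASO lies above every control liver, for Ifngr1 every one lies below, and for Ifit3 and Iigp1 the groups overlap.

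No sensor of nucleic acid passed in limma, of 10 tested, and 1 (Eif2ak2, lower) did at an unadjusted p below 0.05. Their mean log2 ratios lay between -0.41 and 0.39, with a median of 0.13. The largest belonged to Zbp1, a sensor of nucleic acid in the Z conformation that can start cell death. Its log2 signals were 11.04, 10.39, 10.49 and 12.34 in mice 6, 7, 9 and 10 labelled Plin2-ASO, against 10.94, 10.44, 10.44 and 10.89 in control mice 1, 2, 4 and 5. Mouse 10 stood far above all controls and mouse 6 slightly above them, so the groups overlapped only through mice 7 and 9, and the mean ratio of 0.39 ± 0.26 (SE, adjusted p = 0.378) was 0.04 without array 4.

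Eif2ak2 encodes PKR, the kinase that halts translation on binding double-stranded RNA. It had log2 signals of 7.49, 8.03, 7.92 and 8.08 in mice 6, 7, 9 and 10 labelled Plin2-ASO, against 8.10, 8.47, 8.0 and 8.61 in control mice 1, 2, 4 and 5. The groups overlapped, and the ratio was negative on each array with a mean of -0.41 ± 0.14 (SE, adjusted p = 0.116; 0.0119 without array 3). The RNA helicase sensors Rigi, Ifih1 and Dhx58 had mean ratios of 0.29, 0.14 and 0.32. A second kept probe of Ifih1 had a mean of 0.46 and was positive on each array. The 4 kept probes of Rigi did not share a sign, their means running from -0.41 to 0.48. The 2′-5′ oligoadenylate synthetases, which make the activator of RNase L, had mean ratios of 0.03 (Oas1a), 0.13 (Oas2) and -0.16 (Oas3). The related Oasl1 had a positive ratio on each array and groups that did not overlap, with a mean of 0.30 that missed the threshold (adjusted p = 0.219), and Oasl2 had a mean of -0.05. Oas1g was not well above background on any array, and as a close copy of Oas1a it may share that gene's probe, which was not tested.

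Of 11 tested antiviral effectors 1 rose. Ifit3, a member of the family that binds foreign RNA ends and blocks their translation, had log2 signals of 11.83, 11.52, 11.75 and 12.26 in mice 6, 7, 9 and 10 labelled Plin2-ASO, against 11.58, 11.00, 10.85 and 11.31 in control mice 1, 2, 4 and 5. The groups overlapped at mouse 7, which was below control mouse 1, but on each array the liver labelled Plin2-ASO was the higher. The means were 11.84 ± 0.31 in livers labelled Plin2-ASO and 11.19 ± 0.33 in control livers (SD, n = 4 each), a mean log2 ratio of 0.65 ± 0.16 (SE) or a 1.57-fold higher signal, and the call sat at the threshold (limma adjusted p = 0.0490).

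The probe of Ifit3 lies at chr19:34289919-34289978 (mm7), and a second kept probe, at chr19:34313887-34313946, had a mean ratio of 0.71. The near-identical copy Ifit3b may share their signal. Over the 18 alternative analyses the call held in 7, with adjusted p between 0.0158 and 0.186 and means between 0.46 and 0.79. Without arrays 1, 2 and 4 it was lost (adjusted p = 0.121, 0.186 and 0.156).

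Ifitm1, which hinders the entry of enveloped viruses, had log2 signals of 12.17, 11.66, 11.84 and 11.99 in mice 6, 7, 9 and 10 labelled Plin2-ASO, against 11.64, 11.54, 10.89 and 10.98 in control mice 1, 2, 4 and 5. The groups did not overlap, the lowest liver labelled Plin2-ASO being 11.66 and the highest control liver 11.64. The mean ratio was 0.65 ± 0.18 (SE) and missed the threshold (limma adjusted p = 0.0667; 0.0402 without array 3). Ifit1, from the same family as Ifit3, had a positive ratio on each array with a mean of 0.49 (adjusted p = 0.102). Bst2, the tetherin that holds budding virus at the membrane, had a negative ratio on each array with a mean of -0.40 (adjusted p = 0.106). Its groups did not overlap either, the highest liver labelled Plin2-ASO being 15.72 and the lowest control liver 15.79. Bst2 also passed as lower without array 3. The others, Mx1, Mx2, Rsad2, Ifitm3, Isg20, Samhd1 and Trim30a, had means between -0.13 and 0.29. Rsad2, which encodes viperin, had kept probes of both signs and passed as lower without array 3. Both probes of Ifit2 were too dim to be tested.

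Neither member of the ISG15 system passed, and Usp18 did at an unadjusted p below 0.05. Isg15, the ubiquitin-like protein that is joined to new proteins after interferon, had log2 signals of 11.81, 11.49, 11.35 and 12.75 in mice 6, 7, 9 and 10 labelled Plin2-ASO, against 12.14, 11.80, 11.65 and 12.47 in control mice 1, 2, 4 and 5. Its log2 ratio was -0.33, -0.30 and -0.30 on arrays 1 to 3 and 0.29 on array 4, with a mean of -0.16 ± 0.15 (SE, adjusted p = 0.547). The mean was -0.11 without array 1 and -0.31 without array 4. The files place this probe on chromosome 17 of mm7, although its accession is that of Isg15, which RefSeq has on chromosome 4.

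Usp18, the protease that removes ISG15 and damps the type I receptor, had log2 signals of 10.61, 10.63, 10.51 and 11.01 in mice 6, 7, 9 and 10 labelled Plin2-ASO, against 11.53, 11.47, 10.81 and 11.08 in control mice 1, 2, 4 and 5. Control mice 1 and 2 were the highest livers and the groups overlapped at mouse 10. The ratio was negative on each array, with a mean of -0.53 ± 0.18 (SE, adjusted p = 0.111; 0.0306 without array 3).

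The interferon-inducible GTPases, which attack the vacuoles of intracellular microbes, had median ratios that lay farther apart between arrays than those of any other role. Of 7 tested members 1 rose and 6 did not pass, and their median ratio was 0.59. Iigp1, an immunity-related GTPase, had log2 signals of 14.98, 14.35, 15.64 and 15.69 in mice 6, 7, 9 and 10 labelled Plin2-ASO, against 14.10, 13.79, 13.46 and 14.82 in control mice 1, 2, 4 and 5. The groups overlapped, since control mouse 5 was above mouse 7, but the ratio was positive on each array, from 0.56 on array 2 up to 2.19 on array 3. The means were 15.17 ± 0.63 in livers labelled Plin2-ASO and 14.04 ± 0.58 in control livers (SD, n = 4 each), a mean log2 ratio of 1.12 ± 0.26 (SE) or a 2.18-fold higher signal (limma adjusted p = 0.0412). The call was lost without array 1, 2 or 4 (adjusted p = 0.142, 0.0889 and 0.0628) and in 4 of the 14 alternatives of processing.

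Tgtp1 had log2 signals of 11.17, 10.78, 11.58 and 14.19 in mice 6, 7, 9 and 10 labelled Plin2-ASO, against 11.39, 10.46, 10.29 and 11.53 in control mice 1, 2, 4 and 5. Mouse 10 lay far above every other liver. The mean ratio was 1.01 ± 0.42 (SE, adjusted p = 0.181) and 0.46 without array 4. A second kept probe of Tgtp1 had a mean of 0.12, and the near-identical gene Tgtp2 may share the signal of both.

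Irgm1 and Ifi47 had positive ratios on each array, with means of 0.59 each (adjusted p = 0.0913 and 0.119), and a second probe of Irgm1 had a mean of 0.61. Gbp2, Gbp3 and Igtp changed sign between arrays: their ratios on arrays 1 to 4 were -0.87, -0.19, 0.84 and 1.29 for Gbp2, -0.52, -0.23, 0.87 and 1.28 for Gbp3, and -1.29, -0.56, -0.02 and 1.06 for Igtp. All 3 were negative on arrays 1 and 2 and positive on array 4. The guanylate-binding proteins are close copies of each other, and a probe may read more than 1 of them. The probe with the accession of Gbp4 was too dim to be tested. A probe that the files name Gbp4 carries the accession of Gbp3 and was tested as Gbp3.

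**Figure D3:**
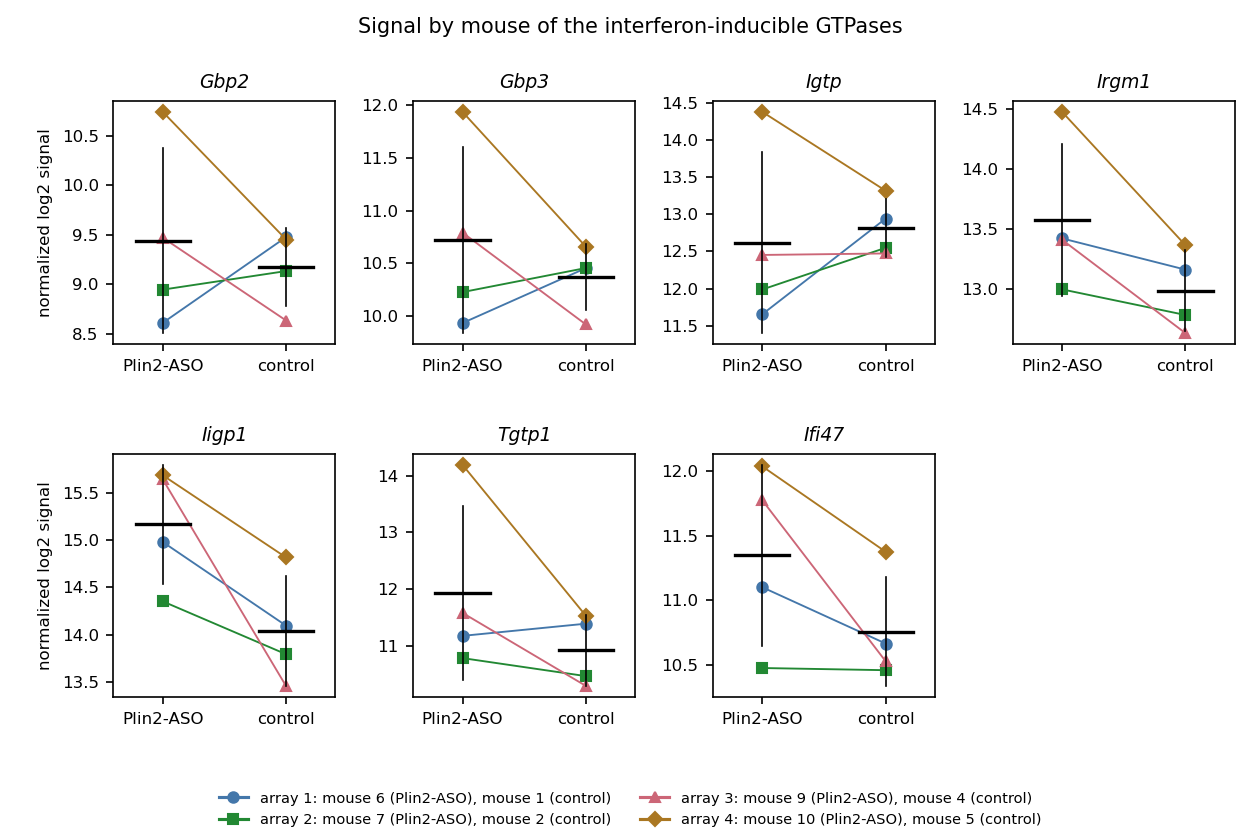
Normalized log2 signal by mouse (vertical axis) of the 7 tested interferon-inducible GTPases, with livers labelled Plin2-ASO left of control livers, a line joining the mice of 1 array, and means with SD (n = 4 each) in black. Mouse 10 on array 4 is the highest of the 4 livers labelled Plin2-ASO for each of the 7 GTPases.

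The 4 livers of 1 label thus differed among themselves. The mean log2 signal over the 7 GTPases was 11.55, 11.39, 12.16 and 13.35 in mice 6, 7, 9 and 10 labelled Plin2-ASO, and 11.74, 11.38, 11.13 and 12.07 in control mice 1, 2, 4 and 5. Mouse 10 and control mouse 5, both on array 4, were the highest of their groups. Of the 40 members measured on all arrays mouse 10 was the highest of the 4 mice labelled Plin2-ASO in 32 (80%, against 24.0% of all genes), and control mouse 5 the highest of the 4 control mice in 21 (52.5%, against 26.3%). The median ratio of the members was 0.03, 0.03, 0.32 and 0.44 on arrays 1 to 4, with positive ratios for 21, 23 and 29 of 41 members on arrays 1 to 3 and 33 of 40 on array 4. Over all genes the medians were -0.04, -0.04, 0.01 and -0.02. For the GTPases the medians were -0.22, 0.02, 0.87 and 1.11. The median signal in Cy3 was also the highest on array 4, at 499, and lay between 244 and 392 on arrays 1 to 3. In Cy5, the dye of the control mice, it was 260 on array 4 and between 256 and 637 on arrays 1 to 3. The part of signal strength in these values was not tested.

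**Figure D4:**
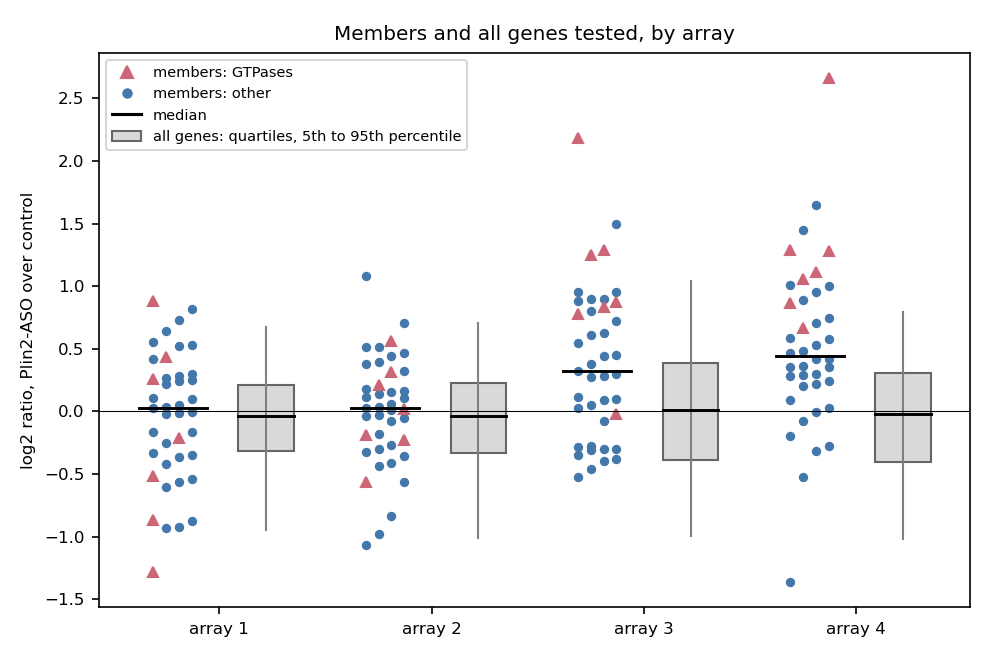
Log2 ratio of livers labelled Plin2-ASO over control livers (vertical axis) on arrays 1 to 4. Points are the tested members, with the GTPases as triangles, black bars are medians, and grey boxes with lines give the quartiles and the 5th to 95th percentiles of all genes tested; the median of the members is 0.03 on arrays 1 and 2 and 0.44 on array 4.

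Among the 4 other tested members Ifi27 rose. It encodes a small protein of mitochondrial and nuclear membranes, and its log2 signals were 13.56, 13.36, 13.39 and 13.78 in mice 6, 7, 9 and 10 labelled Plin2-ASO, against 12.91, 12.91, 12.59 and 13.30 in control mice 1, 2, 4 and 5. The groups did not overlap, and the ratios of 0.65, 0.44, 0.80 and 0.48 were the closest to each other of the members that rose. The means were 13.52 ± 0.19 in livers labelled Plin2-ASO and 12.93 ± 0.29 in control livers (SD, n = 4 each), a mean log2 ratio of 0.59 ± 0.13 (SE) or a 1.51-fold higher signal (limma adjusted p = 0.0354; 0.228, 0.159 and 0.0839 without arrays 1, 2 and 4).

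The probe of Ifi27 lies at chr12:100935809-100935868 (mm7) and carries the accession of the current gene, although the files name it D12Ertd647e. A second probe, which the files name Ifi27, at chr12:100951375-100951434, had ratios of -0.29, -0.73, 2.24 and -0.27, close to those of a probe of the neighbouring Ifi27l2a (-0.35, -0.87, 2.18 and -0.39). The files give the name Ifi27 to that probe too, and to a brighter probe of Ifi27l2a. The brighter probe had ratios of -1.27, -1.35, 0.43 and -0.66 on arrays 1 to 4 (mean -0.71). Probes of that name thus disagreed in direction. With the mean of the 2 probes assigned to Ifi27 the ratio was 0.41 (adjusted p = 0.366). The genes are close copies, and which of them the second probe reads was not tested. Parp14, an enzyme that adds ADP-ribose to proteins, had log2 signals of 10.97, 10.82, 11.00 and 11.39 in mice 6, 7, 9 and 10 labelled Plin2-ASO, against 10.70, 11.17, 10.11 and 10.81 in control mice 1, 2, 4 and 5. The groups overlapped and array 2 had the opposite sign, with a mean ratio of 0.34 ± 0.21 (SE, adjusted p = 0.338). The mean was 0.58 without array 2, 0.16 without array 3 and 0.12 with array quality weights. On array 2 the ratio was -0.36 for this probe, and -0.01 and 0.09 for 2 further kept probes of Parp14. The means of these further probes were 0.23 and 0.31. Ifi35 and Ifi44 had means of 0.22 and 0.03, and Xaf1 had no probe.

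Across the members 16 had more than 1 kept probe. In 4 of them, Ifnar2, Irf1, Rigi and Rsad2, a further probe had a mean ratio of the opposite sign.

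The pathway around the members was described by 82 further genes, of which 66 were tested. In limma 2 were higher and 3 lower, beside the 3.69% and 6.08% of all genes given above, and their median ratio was -0.04. With median centring in place of loess the split was 3 higher and 1 lower, and with scaling between arrays 5 higher and 3 lower. Most interferon genes gave no usable signal: Ifnb1, Ifna2, Ifna4, Ifnk and Ifne were not well above background on any array and Ifng was on too few. Of the 4 tested genes among the interferons and other receptor chains none passed (1 lower at an unadjusted p below 0.05), and Ifngr2, the second chain of the interferon gamma receptor, had a mean ratio of -0.26.

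Before interferon is made, 2 of 17 tested genes of sensing and signal relay were lower and none was higher. At an unadjusted p below 0.05, 3 were lower and 1 was higher (15.7% and 11.3% of all genes). Cgas, the sensor of DNA in the cytosol, had log2 signals of 7.38, 7.42, 7.50 and 8.09 in mice 6, 7, 9 and 10 labelled Plin2-ASO, against 8.27, 8.14, 8.79 and 8.48 in control mice 1, 2, 4 and 5. Sting1, the receptor for the messenger that Cgas makes, had 9.96, 9.73, 9.82 and 10.51 in the mice labelled Plin2-ASO, against 10.70, 10.68, 10.62 and 10.68 in the control mice. For both genes all livers labelled Plin2-ASO were below all control livers, mouse 10 nearest to them. Cgas had a mean ratio of -0.82 ± 0.17 and Sting1 of -0.67 ± 0.16 (SE, limma adjusted p = 0.0287 and 0.0474). Cgas was well above background on 4 arrays in control livers but on 2 in livers labelled Plin2-ASO. It was thus kept by the filter through the control channel. The lowest signals well above background in Cy3 were 7.25, 7.32 and 7.42 on arrays 1 to 3, close to those of Cgas. Its call and the gap between its groups are not independent of the filter.

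After the receptor, 2 of 13 tested genes of signal relay and its brakes were higher (4 higher and 0 lower at an unadjusted p below 0.05). Tyk2, a Janus kinase that sits on Ifnar1, had log2 signals of 9.68, 9.28, 9.45 and 9.64 in mice 6, 7, 9 and 10 labelled Plin2-ASO, against 9.18, 8.75, 8.70 and 8.58 in control mice 1, 2, 4 and 5. Irf2, which competes with Irf1 for its sites, had 12.72, 12.46, 13.23 and 13.02 in the mice labelled Plin2-ASO, against 11.94, 11.85, 12.29 and 12.22 in the control mice. Neither gene's groups overlapped, and the mean ratios were 0.71 ± 0.15 for Tyk2 and 0.78 ± 0.13 for Irf2 (SE, limma adjusted p = 0.0279 and 0.0130).

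Jak1, the kinase on Ifnar2, had a mean ratio of 0.93 and missed the threshold (adjusted p = 0.0618).

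Of 32 tested interferon-induced genes that are not on the member list, 2 were higher and 5 lower at an unadjusted p below 0.05 in limma (11.3% and 15.7% of all genes). After adjustment none was higher and 1 was lower, and their median ratio was -0.02. The lower one was Slfn2, a Schlafen gene of immune cells, with log2 signals of 9.73, 9.79, 9.95 and 10.46 in mice 6, 7, 9 and 10 labelled Plin2-ASO, against 11.24, 11.26, 10.54 and 10.89 in control mice 1, 2, 4 and 5. Its groups did not overlap, and its mean ratio was -0.99 ± 0.22 (SE, adjusted p = 0.0347). The 3 genes that fell here, Cgas, Sting1 and Slfn2, and the 2 that rose are a description, as no test compared the lists with each other. Without array 1 the adjusted p of these 5 lay between 0.112 and 0.246, and without array 2 between 0.0770 and 0.25, so that none passed. Without array 3 all 5 passed, and without array 4 all but Tyk2 (0.0932).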

How the data were processed

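The members and gene lists were chosen with earlier results of these data known. Per the file headers, Feature Extraction 9.5.1.1 measured the arrays, and the deposited intensities (mean signal and median background of each spot) were used before any subtraction. The log10 ratios deposited beside them, and the authors' series table of log2 ratios, both red over green, served as alternatives with their sign turned. Probe by probe (41174), these differed by at most 0.

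In limma 3.58.1 (R 4.3.3) intensities were corrected by normexp with an offset of 50, followed by loess within each array. Outlier spots were set to missing, and 27158 probes well above background on at least 3 arrays in 1 channel were kept. The brightest kept probe measured on at least 3 arrays represented a gene. Mean log2 ratios, positive when higher in livers labelled Plin2-ASO, were tested against 0 with limma (7.21 degrees of freedom, two-sided) and adjusted with Benjamini-Hochberg over 18040 genes. Levels per mouse are log2 signals after Aquantile normalization between arrays. Each array holds other mice, and precision is limited by there being 4 arrays.

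Values by mouse are given for members past the threshold, for Plin2 and for the members with the largest absolute ratios in each role. Other genes given with single values, such as Jak1 and Ifngr2, were chosen after their values were seen. Some genes of the lists are counted but not reported here by name. Names came from a RefSeq table of GRCm38.p6, and positions of probes are given as deposited, in mm7, for which no annotation was used here. The alternatives tried concerned background correction, normalization, the source of the ratio, filters, probes, the model, the threshold and single arrays. The fit was tested on simulated data.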

Additional observations from a re-analysis of the deposited data

Results flagged for a closer look

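In groups of 4 values, the highest or lowest value was compared with the others by Dixon's test, which chance passes in about 1 of 20 groups. Of 76 groups examined 5 passed.

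Ifngr1 had a log2 signal of 12.38 in mouse 9 on array 3, far above mice 6, 7 and 10 labelled Plin2-ASO, and still below all control livers. The receptor chains, Ifnar2 and Ifngr1, had a median log2 ratio of 0.57 on array 3, far above their medians on arrays 1, 2 and 4.

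Zbp1 had a log2 ratio of 1.45 on array 4, against -0.05 to 0.11 on arrays 1 to 3. Isg15 had a log2 ratio of 0.29 on array 4, with -0.33 to -0.30 on the other arrays. Ifi35 had a log2 ratio of -0.16 on array 1, with 0.30 to 0.38 on the other arrays.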

How the results depend on the processing

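The alternatives were run for the 14 members given with values by mouse, and none of these changed sign under any of them. Over their 252 alternative values, 208 stayed on the same side of the threshold, 34 were no longer past it and 10 passed it newly. The median log2 ratio of the members, 0.23 in the main fit, lay between 0.11 with array quality weights and 0.29 without array 1. It moved by less than the SD of its medians on the 4 arrays. These medians ran from 0.03 to 0.44, so that measure is wide and says little of stability. Of the members, in place of 5 higher, 3 were higher with the software's ratios, without the background filter or with the mean of all kept probes, 2 with the series table or with eBayes trend and robust, 10 with array quality weights and 8 at an adjusted p below 0.1. In place of 1 lower, 0 were lower with trend and robust and 6 with array quality weights. Leaving out each array gave 0 to 7 members higher and 0 to 6 lower. Of the pathway genes, in place of 2 higher, 5 were higher with scaling between arrays, the mean of all kept probes or separate channels, 4 with the software's ratios, without the filter or with a correction for probe GC, 1 with trend and robust, 7 with array quality weights and 6 at an adjusted p below 0.1. In place of 3 lower, 1 was lower with median centring, without the filter or with a strict filter, 0 with the software's ratios, the series table or trend and robust, 6 with separate channels and 22 with array quality weights. Leaving out each array gave 0 to 7 pathway genes higher and 0 to 12 lower. The software's ratios and the series table hold the same values. Outlier spots were left out for the first and kept for the second, with 18040 and 18637 genes tested. The cause of the other differences was not tested. Over the alternatives of processing, calls over all genes ran between 2% with trend and robust and 15.5% with array quality weights for higher, and between 3.17% and 23.3% for lower. The main test is itself paired, since each array's ratio holds 1 mouse of each group. With 1 dye orientation a dye effect cannot be told apart from the treatment for any member, 4 arrays limit what small ratios can show, and dim probes limit Oas1g, Ifit2 and Gbp4.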
